A study of Mus musculus with 19 samples.

Results

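Of 20797 autosomal protein-coding genes, 4 were chosen as nearly lost after deletion of Mettl14 in mouse neural progenitor cells: Exo1, Calb2, Phactr3 and Fam135b. They were the genes with a mean of 4 CPM or more in the 4 wild-type (WT) ladder libraries, a mean under 0.5 CPM in the 4 knockout (KO) ladder libraries and no overlap between the groups. CPM is the sum of the estimated counts of a gene's transcripts, as a share of the whole library and scaled to counts per 1000000. The WT limit was met by 10116 genes. All 4 genes kept counts in every KO library, so they were low there and not silent. For Exo1 the KO mean in TPM was 0.839 times WT, with overlap between the groups, and the long reads were higher in KO.

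The cells came from the embryonic cortices of Mettl14 WT and conditional knockout (cKO) mice and grew on Matrigel with FGF2 and EGF, each at 20 ng/ml. In the 4 WT and 4 KO ladder libraries, mRNA was separated by length into 7 bands before paired-end sequencing of 75 bp. Another 3 WT libraries were standard single-end libraries of 50 bp, and long reads from native RNA and from direct cDNA were assembled into 1 set of transcripts per genotype. The driver of the deletion, the age of the embryos and whether replicates were separate cultures were not given in the sources used here, so p-values measure the spread between these samples, which may be technical.

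Mettl14 is a subunit of the nuclear methyltransferase that writes N6-methyladenosine (m6A) on mRNA, with Mettl3 as the catalytic partner. The mark lies mostly in short motifs such as GGACT, often near stop codons and in long last exons, and is known to affect the stability, splicing and 3′ end choice of mRNA. In cortical progenitors the enzyme is known for its part in the timing of neurogenesis. The known roles of Exo1, Calb2 and Phactr3 differ, and a pathway common to the 4 genes was not tested. Exo1 encodes an exonuclease of DNA mismatch repair and of the resection of DNA ends, Calb2 encodes calretinin, a calcium-binding protein of certain interneurons, and Phactr3 encodes a protein that binds actin and protein phosphatase 1. Fam135b is a large gene whose protein is little characterised.

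The ladder libraries held 103752444 to 126921887 estimated counts in WT and 104899560 to 118197946 in KO, and the standard libraries held 12084507 to 13987929. Mettl14 itself stood at 20.6 to 28.4 CPM in the WT and 6.21 to 8.31 CPM in the KO ladder libraries. Radial glia markers, which define the labelled cell type, summed to 7775 to 8736 CPM in WT and 5323 to 5985 CPM in KO. Of these 13 markers, 4 were lower in KO (among them Fabp7, Vim and Ptprz1, which made up most of the sum) and 4 were higher (Nes, Lhx2, Emx2 and Hopx), with a median log2 change of 0.04. Of 24 neuron markers, 15 of the 19 tested were lower in KO and 2 were higher, with a median log2 change of -1.41 against -0.03 over all genes tested. Their sum was 877 to 1061 CPM in WT and 628 to 750 CPM in KO, most of it from Gap43 and Map2. Gap43 had means of 567 CPM in WT and 405 CPM in KO, a log2 change of -0.49. Map2 stood at 259 and 234 CPM and did not pass. Other cell type lists moved in the same contrast. Of 18 oligodendrocyte lineage markers, 11 were lower and 2 higher. Their sum did not fall, at 1346 to 1932 CPM in WT and 1876 to 2273 CPM in KO, and Olig1, the most abundant, rose from 816 to 1383 CPM. Of 14 astrocyte markers, 9 were higher and 4 lower, and 6 of 8 tested markers each of mural cells and of meningeal fibroblasts were higher. Over all genes tested, 27.2% were lower and 26.4% higher (edgeR adjusted p under 0.05). The part of these lists in the levels of the 4 genes was not tested. Tbr1 and Neurod2, transcription factors of cortical excitatory neurons, had ladder means under 0.5 CPM in both genotypes: Tbr1 at 0.0177 (WT) and 0.0246 (KO), Neurod2 at 0.00407 and 0.00461. In bulk samples, fewer cells of a type and less RNA per cell cannot be told apart.

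**Figure D1:**
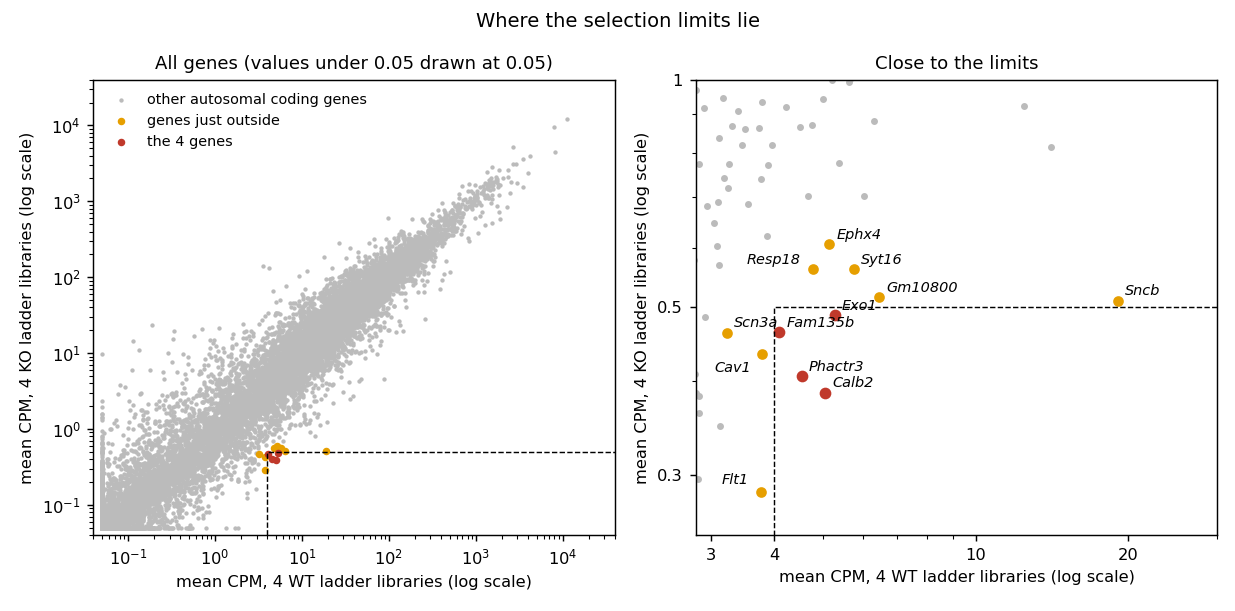
Mean CPM of each autosomal protein-coding gene in the 4 WT ladder libraries (horizontal) against the 4 KO ladder libraries (vertical), both on log scales, with all genes at the left and those close to the limits at the right. Dashed lines mark 4 CPM in WT and 0.5 CPM in KO, the red points are the 4 genes, and the orange points are the nearest genes outside; the 4 lie close to both limits, with WT means of 4.09 to 5.27 CPM.

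The ladder values are those by which the genes were chosen and are given as a description. Calb2 lies on the minus strand of chromosome 8, at chr8:110137502-110168210 in GRCm38. Its WT ladder libraries stood at 4.66, 5.50, 4.95 and 5.07 CPM and its KO libraries at 0.377, 0.381, 0.370 and 0.415 CPM. These KO levels rested on 40, 40, 41 and 49 estimated counts. Calb2 was the steadiest of the 4, with a mean of 5.04 ± 0.350 CPM in WT and 0.386 ± 0.0197 CPM in KO (SD, n = 4 each), a KO level of 0.0765 times WT.

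Phactr3, on the plus strand at chr2:178118975-178338492, stood at 4.08, 3.71, 5.06 and 5.30 CPM in the WT libraries and at 0.326, 0.426, 0.427 and 0.444 CPM in the KO libraries. The groups did not overlap, and KO replicate 1 was the lowest. The means were 4.54 ± 0.768 and 0.406 ± 0.0537 CPM (SD, n = 4 each), a KO level of 0.0894 times WT.

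Exo1, on the plus strand at chr1:175880581-175913489, stood at 6.14, 5.74, 5.10 and 4.10 CPM in the WT libraries. In the KO libraries it stood at 0.490, 0.555, 0.397 and 0.511 CPM, of which 2 exceed 0.5 CPM. Its KO mean of 0.488 ± 0.0668 CPM (SD, n = 4) was just inside the limit, against 5.27 ± 0.892 CPM (SD, n = 4) in WT, a ratio of 0.0926.

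Fam135b, on the minus strand at chr15:71431609-71727838, stood at 4.27, 4.82, 3.81 and 3.47 CPM in WT and at 0.616, 0.469, 0.478 and 0.292 CPM in KO. It was the gene closest to the WT limit, with 2 of its 4 WT libraries under 4 CPM. The means were 4.09 ± 0.589 and 0.464 ± 0.133 CPM (SD, n = 4 each), and the KO level was 0.113 times WT. In the fit across all 18687 genes tested, 27.2% of genes were lower in KO and 26.4% higher (edgeR quasi-likelihood test, Benjamini-Hochberg adjusted p under 0.05). Since the 4 genes were chosen on this contrast, no test is given for them.

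**Figure D2:**
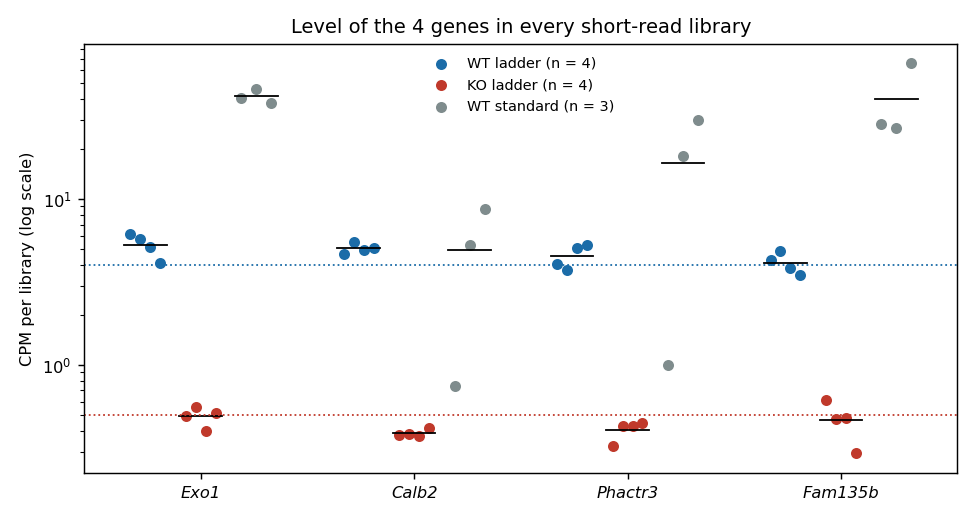
CPM (log scale) of the 4 genes in each library: 4 WT ladder (blue), 4 KO ladder (red) and 3 WT standard (grey), with black lines at group means and dotted lines at 4 and 0.5 CPM. Points within a group are in replicate order; all KO ladder points lie between 0.292 and 0.616 CPM, and standard replicate 1 is far below replicates 2 and 3 for Calb2 and Phactr3.

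The limits cut through a run of similar genes. Just above the KO limit were Sncb, which encodes the presynaptic protein beta-synuclein (19.1 CPM in WT, 0.510 in KO), Gm10800 (6.45 and 0.516), the synaptotagmin gene Syt16 (5.75 and 0.562), Resp18 (4.78 and 0.562) and Ephx4 (5.14 and 0.606). Just below the WT limit were the caveolin gene Cav1 (3.78 CPM in WT, 0.434 in KO), the VEGF receptor gene Flt1 (3.77 and 0.285) and the sodium channel gene Scn3a (3.23 and 0.463). Sncb had the highest WT level of these 12 genes.

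CPM takes no account of transcript length, and for Exo1 the choice of unit decided the size of the difference, a comparison added after the data were seen. In TPM, a unit that divides each transcript's counts by its length, Exo1 summed to 0.858, 0.986, 0.807 and 0.860 in the WT ladder libraries. In the KO libraries it summed to 0.682, 0.884, 0.693 and 0.688 TPM. The groups overlapped, with KO replicate 2 above 3 of the 4 WT libraries and the other KO libraries below all of them. The KO mean was 0.839 times the WT mean, and the KO values rested on 43.9 to 60.4 estimated counts per library. The other genes kept their ratios on this scale, at 0.0801 for Calb2, 0.0941 for Phactr3 and 0.129 for Fam135b. Their WT means were 3.12, 1.42 and 0.192 TPM, so Fam135b in WT was below the Exo1 mean in KO, 0.737 TPM.

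The split between units came from which Exo1 transcripts held the counts. Exo1-201, the full-length transcript of 7796 nt and 15 exons, ends with 4924 nt of 3′ UTR, 63.2% of its length. It held 94.1% to 97.2% of the Exo1 counts in the WT ladder libraries, at 3.86 to 5.97 CPM. In the KO libraries it stood at 0.000455 to 0.0169 CPM, which is at most 2.00 estimated counts per library. The shorter Exo1 transcripts together were the other way round, at 0.170 to 0.240 CPM in WT and 0.393 to 0.553 CPM in KO, with no overlap. Most of that lay on Exo1-205 (726 nt, mean 0.0552 CPM in WT and 0.191 in KO) and Exo1-208 (739 nt, 0.0856 and 0.206).

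Exo1-205 covers the first part of the gene and Exo1-208 the last. Exo1-208 holds an exon of 55 nt at chr1:175906606-175906660 that Exo1-201 lacks. Its length is no multiple of 3, and the annotated stop codon of Exo1-208 lies earlier in the last exon than that of Exo1-201. The sequence is shown because this exon was also assembled from KO cDNA long reads, with the added exon in capitals between 15 bases of each flanking exon.
Exo1-208 exon 4: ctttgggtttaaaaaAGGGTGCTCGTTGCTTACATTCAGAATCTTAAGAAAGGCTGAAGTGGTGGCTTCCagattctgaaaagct

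The other 3 genes kept 1 leading transcript in most libraries. Calb2-201 (1431 nt, 11 exons) held at least 99.0% of Calb2 counts in each ladder library, and Fam135b-201 (18692 nt, 20 exons) at least 98.5% of Fam135b counts. Phactr3-202 (2680 nt, 13 exons) held 84.8% to 92.5% of Phactr3 counts in WT. In KO its share was 0% in replicate 1, 41.7% in replicate 3 and 100% in replicates 2 and 4, on gene totals of 34.6 to 52.5 estimated counts.

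Long reads gave a measure that took no part in the choice. The deposited TPM of assembled transcripts was summed per gene. There was 1 assembly per genotype and chemistry, made by the authors from pooled samples, so the values have no replicate error and no test. Calb2 stood at 2.86 TPM in the WT native RNA assembly and 0.440 TPM in the WT cDNA assembly, and was in neither KO assembly made with StringTie. FLAIR, a second assembler that gives no level, listed Calb2-201 in KO native RNA, but its WT and KO native files share 22686 transcript names. The WT native StringTie transcript had the 11 exons of Calb2-201 and ended within a few bases of its annotated end.

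Phactr3 stood at 14.7 TPM in WT native RNA and 0.757 TPM in WT cDNA and was in neither KO assembly of either assembler. The main WT native transcript (12 TPM) had 12 exons and ended at chr2:178336494, and a second of 5 exons (2.65 TPM) shared that end. The last 30 bases before these ends are shown since each holds AATAAA, the usual signal for cleavage and polyadenylation, in capitals and 5′ to 3′.
Phactr3 long-read end, chr2:178336465-178336494, plus strand: aaacAATAAAaatcccctacgtttgtttat
Calb2 annotated end, chr8:110142538-110142567, minus strand: gagAATAAAgtggaaatgttctgtcgcgga
Both windows were searched on the transcript's strand for AATAAA and ATTAAA, and 20 bases follow the signal in Phactr3 and 21 in Calb2.

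Exo1 went the other way in the long reads. It stood at 3.97 TPM in WT and 27.0 TPM in KO native RNA, a ratio of 6.81. In cDNA it stood at 0.354 TPM in WT and 4.02 TPM in KO, a ratio of 11.4. Of the 3 genes of the 4 that reached 1 TPM in a native assembly, 2 were lower in KO by 4-fold or more and 1 was higher, where 13.7% of 10427 genes were lower and 6.55% higher. In cDNA, Exo1 alone reached 1 TPM and was higher, where 4.02% of 8229 genes were lower and 6.38% higher. Fam135b was in no assembly as a spliced transcript, so its KO level was not checked by this measure. A single-exon fragment of 0.157 TPM in KO cDNA lay within the last exon of Fam135b, and a second of 0.158 TPM lay between its ends, both with no strand given.

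**Figure D3:**
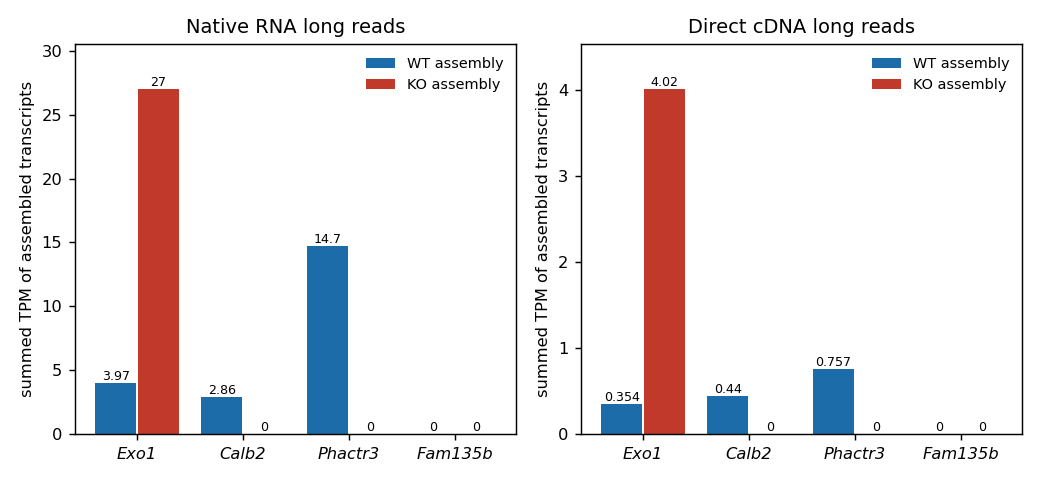
Summed TPM of assembled transcripts for the 4 genes in native RNA (left) and direct cDNA (right) long reads, with 1 WT (blue) and 1 KO (red) assembly each and no replicates. Exo1 is at 3.97 in WT and 27.0 in KO in native RNA, Calb2 and Phactr3 are listed in WT only, and Fam135b is at 0 throughout; the vertical axes differ.

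No spliced Exo1 long-read transcript reached the annotated end of the long 3′ UTR, and several were fragments or lacked exons. In KO native RNA, the leading transcript (22.0 TPM, 15 exons, 2855 nt) had every intron of Exo1-201. It ended at chr1:175908750, which is 4739 bp before the annotated end of Exo1-201. A second KO native transcript of 5.00 TPM and 4717 nt kept intron sequence between exons and had the same end. In KO cDNA, 10 spliced transcripts were assembled and all ended there, the leading one at 1.45 TPM with every intron of Exo1-201. The transcript with the added exon of 55 nt shown above stood at 0.344 TPM, and that exon was in no native RNA assembly of either genotype and not in WT cDNA. Exo1-208 itself had counts in the WT ladder libraries, as given above. WT transcripts that reached the last exon ended 4752 bp (cDNA) and 4749 bp (native RNA) before the annotated end, so the short end was present in both genotypes. With FLAIR, 1 WT cDNA transcript ran further and ended 2637 bp before the annotated end.

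Sequence at the far end of the Exo1-201 3′ UTR was assembled in WT cDNA alone. This was a single-exon piece of 301 nt, chr1:175913191-175913491, at 0.213 TPM. It had no strand in 1 assembler's file and the minus strand in the other's, where Exo1 lies on the plus strand, and it was joined to no Exo1 exon. The 30 bases before the short end and before the annotated end of Exo1-201 are shown because neither holds AATAAA or ATTAAA.
Exo1 long-read end, chr1:175908721-175908750, plus strand: tctgtctttgacatttctgggaagtttaaa
Exo1 annotated end, chr1:175913460-175913489, plus strand: attgaggcaaataagaaatggtactaaagc
The ladder files also held counts on assembled targets with no structure in the files used here, 11.9% to 13.4% of each library. Whether any of these belong to Exo1 was not tested.

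**Figure D4:**
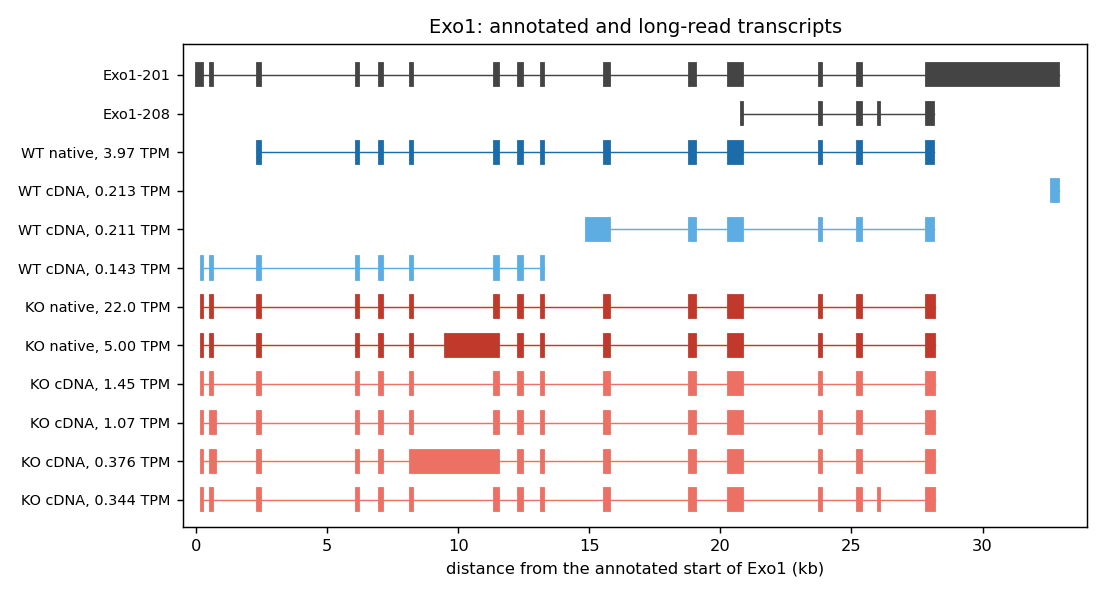
Exons (boxes) and introns (lines) of annotated Exo1-201 and Exo1-208 (grey) and of up to 4 StringTie transcripts per long-read assembly (WT blue, KO red), by distance in kb from the annotated start, with each transcript's TPM. The spliced long-read transcripts that reach the last exon stop 4739 to 4752 bp before the end of Exo1-201, and the WT cDNA piece of 0.213 TPM lies alone at that end.

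The standard libraries were WT alone and gave a further level for each gene. All 4 had a mean of 4 CPM or more there, as did 96.8% of the 10116 genes above the WT ladder limit. Exo1 was high and even, at 40.7, 45.8 and 38.0 CPM in replicates 1 to 3. Fam135b stood at 28.3, 26.8 and 65.5 CPM, with some of its targets not listed for replicate 2. Calb2 stood at 0.745, 5.29 and 8.69 CPM, and Phactr3 at 0.993, 18.1 and 29.9 CPM. For these last 2 genes, standard replicate 1 was far below the others and closer to the KO than to the WT ladder level.

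Standard replicate 1 over the mean of replicates 2 and 3 was 0.107 for Calb2 and 0.0414 for Phactr3, where the median of 9794 genes was 0.973. Only 0.449% and 0.112% of genes had a lower ratio. Sncb, just outside the KO limit, had 0.0138, Fam135b 0.613 and Exo1 0.971. The levels in standard replicate 1 rested on 9 estimated counts for Calb2 and 12 for Phactr3. The KO over WT ratios in the ladder libraries were 0.0765 for Calb2 and 0.0894 for Phactr3, each from means of 4 libraries. The Phactr3 ratio was thus lower among the standard WT libraries than between the ladder genotypes, but it rests on 1 library of few counts. More than 1 gene list moved with Calb2 and Phactr3. Neuron markers summed to 1357 CPM in standard replicate 1 and to 2406 and 3095 CPM in replicates 2 and 3, and HIF targets and glycolysis genes to 5746, 10401 and 10751 CPM. In replicate 1, most of the neuron sum came from the markers Map2 and Gap43. Map2 differed little, at 856, 912 and 937 CPM, and Gap43 ran the other way, at 293, 180 and 236 CPM. Tbr1 was at 0, 37.4 and 57.5 CPM, Neurod2 at 0, 42.3 and 62.3 CPM, and Stmn2, which encodes a growth-cone protein, at 0.0828, 165 and 248 CPM. The part of these genes in the Calb2 and Phactr3 levels was not tested.

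Against the WT ladder mean, the standard mean was 9.82 times as high for Fam135b, 7.87 for Exo1, 3.60 for Phactr3 and 0.973 for Calb2. The median over the 10116 genes was 1.43, with 5% of genes below 0.290 and 5% above 5.05. A ratio of 4 or more was found in 7.62% of genes and in 2 of the 4, Exo1 and Fam135b. These 2 also had the longest 3′ UTRs, of 4924 and 14291 nt, longer than in 96.2% and 99.95% of the genes. Among the 388 genes whose 3′ UTR was as long as that of Exo1-201 or longer, the median ratio was 2.53 and 27.8% reached 4. Protocol, read length and the set of target transcripts differed together between the 2 kinds of library and cannot be told apart. The same holds for any difference between the cultures, which was not tested. Calb1, for one, stood at 233 to 1027 CPM in the standard and 0.100 to 0.232 CPM in the ladder libraries.

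**Figure D5:**
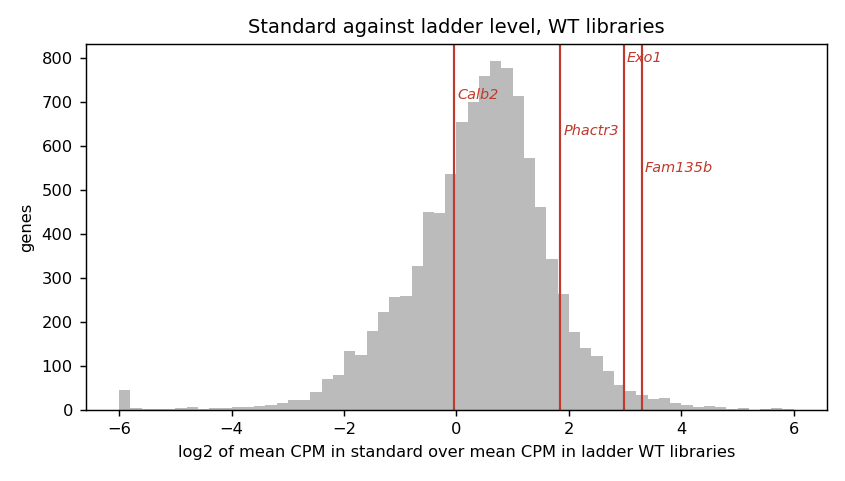
Distribution over the 10116 genes of the log2 ratio of mean CPM in the 3 standard to the 4 ladder WT libraries (grey; values beyond 6 drawn at the edge), with red lines at the 4 genes. Exo1 and Fam135b lie in the right tail, with ratios of 7.87 and 9.82, and Calb2 at 0.973 lies left of the median.

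Beyond the rule, the 4 genes shared few features. They lie on 4 chromosomes, and the only annotated gene that overlaps any of them is the snRNA gene Gm23805 in Exo1, with no counts in WT and 0.00235 CPM in KO. Phactr3 and Fam135b are long genes of 219.5 and 296.2 kb, against a median of 25.6 kb, and Exo1 and Calb2 span 32.9 and 30.7 kb. The leading transcripts ran from 1431 nt (Calb2) to 18692 nt (Fam135b) around a median of 2993 nt. GC content was 42.1% in Fam135b, 46.6% in Exo1, 52.6% in Phactr3 and 53.5% in Calb2, against a median of 50.7%.

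The motif GGACT, searched on the transcript strand, occurred in all 4 leading transcripts, as it did in 91.7% of the 10116. Exo1-201 held 21 copies, or 2.69 per kb, a density above 96.0% of the genes. Fam135b-201 held 23 (1.23 per kb), and Calb2-201 and Phactr3-202 held 2 each (1.40 and 0.746 per kb), against a median of 1.06 per kb. A match is a description of the letters and not a measured m6A site.

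Genes with related names moved in both directions. Of 5 tested genes named like Exo1, Calb2 or Phactr3 (the same letters before the number), 1 was lower in KO and 2 were higher. Over all genes tested, 27.2% were lower and 26.4% higher, and 5 genes are too few to set against those shares. Phactr1, which like Phactr3 binds actin and protein phosphatase 1, fell from 5.12 ± 1.45 to 1.31 ± 0.149 CPM (SD, n = 4 each), a log2 change of -1.97 (SE 0.205, edgeR adjusted p = 1.0e-05). Phactr2 rose from 4.49 ± 0.579 to 9.59 ± 0.421 CPM, a log2 change of 1.08 (SE 0.113, edgeR adjusted p = 1.0e-05). Phactr4 had a log2 change of -0.11 (SE 0.133) and did not pass. Exo5, which encodes another DNA exonuclease but shares with Exo1 little beyond the name, rose by 1.06 (SE 0.0977, edgeR adjusted p = 4.0e-06). Calb1, which encodes calbindin, a relative of calretinin, was near the floor in both ladder groups, at 0.169 and 0.150 CPM.

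Genes that work with the 4 were taken from 3 lists put together after the data were seen. Of 17 mismatch repair genes on the list, 2 fell and 4 rose, with a median log2 change of -0.08. Pms2 (-0.92) and Msh3 (-0.62), which encode subunits of the MutL and MutS complexes, fell. Lig1 (0.49), Msh6 (0.41), Rpa1 (0.39) and Rpa2 (0.23) rose, but the Lig1 call was lost without KO replicate 2, KO replicate 3 or WT replicate 1, and the Msh6 call without KO replicate 2 or 3. Of 16 cortical interneuron genes, 9 could be tested, 2 fell and 3 rose. The neuropeptide gene Npy fell by 4.73 on the log2 scale, from 0.507 to 0.0181 CPM, and the transcription factor gene Sp8 rose by 2.92, from 1.74 to 13.2 CPM. Of 13 subunits and regulators of protein phosphatase 1, 4 fell and 4 rose. The largest changes were in Ppp1r9b (0.71), which encodes the actin-binding spinophilin, and Ppp1r1a (-0.66), an inhibitor. Over all genes, the shares were 27.2% lower and 26.4% higher.

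The genes beside the 4 showed smaller differences. Of the 8 nearest tested protein-coding neighbours, 4 were lower in KO and 1 was higher, where 27.2% of all genes were lower and 26.4% higher. Genes left out of the fit for low counts were passed over, so a neighbour need not be the adjacent gene. Next to Exo1, Chml, 188 kb upstream, fell by 0.60 on the log2 scale (SE 0.134, edgeR adjusted p = 0.0027), and Pld5, 48.8 kb downstream and at 0.267 CPM in WT, by 0.81 (SE 0.268, edgeR adjusted p = 0.024). The Pld5 call was lost without KO replicate 3 or 4 or without WT replicate 1 or 4, with adjusted p-values up to 0.070. Beside Phactr3, Zfp931 fell by 0.60 (SE 0.117, edgeR adjusted p = 0.0011), and Sycp2, at 0.130 CPM, did not pass. Beside Calb2, Zfp612 fell by 0.37 (edgeR adjusted p = 0.016) and Cmtr2, which encodes an mRNA cap methyltransferase, rose by 0.71 (SE 0.121, edgeR adjusted p = 0.00042). Neither tested neighbour of Fam135b passed, and these were Khdrbs3, 2330 kb away, and Col22a1, 68.0 kb away. None of the 8 passed a test for a change beyond 1.5-fold. With the 3 nearest tested genes on each side, 8 of 24 were lower and 7 higher, shares close to those of all genes.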

How the data were processed

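The authors deposited 1 abundance table per short-read library, with estimated counts and TPM per target transcript, made with kallisto per the submitters' processing notes (version not given). Long reads were aligned with minimap2 2.17 to GRCm38, per the same notes, and assembled by the authors with StringTie (TPM) and FLAIR (structures only, a table of another kind with no level); assemblies are pooled per genotype and chemistry, per the labels. The sources used here do not say how the 7 bands were combined. Estimated counts were summed per GENCODE M21 gene, divided by the library total for CPM, and rounded for tests. KO against WT was fitted with edgeR 4.0.16 (filterByExpr, TMM, robust quasi-likelihood test, Benjamini-Hochberg threshold 0.05), with DESeq2 1.42.0 as an alternative, and checked on simulated data. Assembled transcripts were assigned to a gene by a shared annotated intron. No 2 replicates of a group held identical values (at most 0.523% of genes had equal counts). Named genes are the 4 genes, those just outside each limit, their nearest tested neighbours and listed genes of largest change. Tested genes whose symbol shares the letters before the first digit were also named, where 15 or fewer coding genes share them. The 4 genes and all lists were chosen with earlier results of these data known. Sequences come from the GENCODE M21 transcripts on GRCm38. Intervals of counting error are not given since estimated counts are not reads. One gene of an added list is not reported here.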

Additional observations from a re-analysis of the deposited data

Results flagged for a closer look

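Exo1 differed in direction between the kinds of reads. KO over WT was 0.0926 in CPM in the ladder libraries, with all 4 KO below all 4 WT libraries, but 6.81 in native and 11.4 in cDNA long reads, where KO was above WT in both. The long-read assemblies have no replicates, and this difference was not tested. On the TPM scale the ladder ratio was 0.839.

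KO replicate 1 stood apart in Phactr3, at 0.326 CPM where the other 3 KO libraries lay between 0.426 and 0.444 CPM. Its gap to the nearest library was 0.849 of the group's range, and chance alone marks about 1 in 20 such groups. It rested on 34.6 estimated counts.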

How the results depend on the processing

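The 4 genes are set by the limits. A KO limit of 0.25 CPM or a WT limit of 8 CPM left 0 genes, a KO limit of 1 CPM gave 21 and a WT limit of 2 CPM gave 36. Leaving out 1 library gave 4 to 5 genes: Fam135b dropped out without WT replicate 2 and without KO replicate 4, and Exo1 without KO replicate 3. With CPM over annotated genes alone, Exo1 and Fam135b dropped out and Cav1 and Flt1 came in. In the standard libraries, 3 to 4 of the 4 reached 4 CPM when 1 replicate was left out. By FLAIR structures present in 1 genotype only, 1 gene was lower and 0 higher in native RNA and 2 were lower and 0 higher in cDNA, but the 2 native FLAIR files shared 22686 names. At a level of 0.5 TPM, 1 gene was lower in cDNA.

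Beyond 1.5-fold, 2066 genes were lower and 2145 higher, with 0 neighbours lower and 0 higher. With 3 neighbours on each side, 8 were lower and 7 higher. Without 1 library, 4508 to 5105 genes were lower and 4451 to 4855 higher, 3 to 4 neighbours were lower, and 110 to 116 listed genes were lower and 59 to 64 higher. The call of Zfp612 was lost with no filter on low counts. Replicate numbers did not pair the samples (same-number correlations of deviations from -0.02 to 0.05), and with the replicate block 5027 genes were lower and 4922 higher, and the neighbour counts were 4 and 1. Of the alternatives for single named genes, 981 left the call as it was, 44 ended it and 0 reversed it. The KO levels of the 4 genes are limited by their 34.6 to 65.4 estimated counts per library.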

Other observations

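Calb1, the relative of Calb2, stood at 303, 1027 and 233 CPM in the 3 standard WT libraries, where all 8 ladder libraries lay between 0.100 and 0.232 CPM. Pecam1, which encodes an endothelial adhesion protein, stood at 803, 1970 and 851 CPM in the standard libraries and had ladder means of 0.749 CPM in WT and 1.21 CPM in KO. Cldn5, another endothelial marker, was at 0, 0.643 and 0.584 CPM in the same standard libraries. For both Calb1 and Pecam1, standard replicate 2 was the highest, which is another order of libraries than in Calb2 and Phactr3. Of 10 endothelial markers tested in the ladder libraries, 3 were lower in KO and 6 higher, where 27.2% of all genes were lower and 26.4% higher.

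In the other gene lists, 26 of 29 genes of HIF targets and glycolysis were lower in KO and none was higher, and all 21 beta protocadherin genes were lower, with median log2 changes of -1.34 and -2.30. The 17 lists made first hold 312 different genes, tested or not, of which 113 were lower and 68 higher. Over all genes tested, 27.2% were lower and 26.4% higher, but the 312 include genes that were not tested. The lists were also chosen with earlier results of these data known. None of the 4 genes is on these lists. The 3 lists added later were made of genes that work with the 4, so the absence of the 4 there is no result.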
